A study of Homo sapiens with 6 samples.

Results

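The long intergenic noncoding RNAs (lincRNAs) that were well expressed in parent and ADRr MDA-MB-231 cells are described here. They were the genes that the count table names lincRNA, that lie on chromosomes 1 to 22 and that had a mean of at least 50 read counts over the 6 libraries. The rule used the mean count and not the difference between groups, but a member could reach the limit through a single group. This rule selected 178 of the 7446 lincRNAs on these chromosomes, out of 58735 genes in all, and 2741 of the 7446 had at least 1 count. All 178 passed the low-count filter and were tested. MDA-MB-231 is a human triple-negative breast cancer (TNBC) cell line. The comparison was between parent cells (3 libraries) and ADRr cells (3 libraries), which the study derived from the parent line by stepwise selection in Adriamycin (doxorubicin) and then isolated by limiting dilution, so that selection and the choice of a clone cannot be told apart. Nothing in the labels says that libraries of a group came from separate cultures, so the p-values measure the spread between these libraries, which may be technical. The series record mentions time points that the sample labels do not give.

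LincRNAs are transcribed by RNA polymerase II between protein-coding genes, and most are capped, spliced and polyadenylated like mRNAs without being translated into a known protein. Some act as scaffolds in the nucleus, as NEAT1 does for paraspeckles. Others act in the cytoplasm, as NORAD does, or are host transcripts from whose introns or exons snoRNAs and microRNAs are cut. Many accumulate to low levels because they are short-lived, and several start close to the promoter of a neighbouring gene.

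Libraries held 15983985 to 18272314 counts, at which 3 counts, the limit that a count of 0 allows, correspond to 0.164 to 0.188 CPM (counts of a library brought to a common total). This limit covers counting error only. VIM, CD44, CAV1 and AXL, which mark this mesenchymal-like line, lay between 348 and 1703 CPM in every library. The hormone receptor genes ESR1 and PGR had at most 1 count per library. Of the defining markers of other cell types, the leukocyte genes PTPRC, CD53, LYZ and TYROBP had at most 4 counts, and the endothelial genes CDH5, VWF and PECAM1 had at most 2, 7 and 13. The fibroblast gene DCN had 0, while LUM had 46 to 85 and COL1A1 309 to 528 counts, both with more in every parent library than in ADRr libraries, and their part in the results was not tested. The mitochondrial share of the counts was 4.73% ± 0.158 in parent and 4.94% ± 0.290 in ADRr cells (SD, n = 3 each, exact permutation test, two-sided p = 0.3).

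Of the 178 lincRNAs, 74 (41.6%) were higher and 49 (27.5%) were lower in ADRr cells, and 55 were not called. The background over all 15242 genes tested was 29.2% higher and 29.6% lower, or 58.8% in either direction. Among protein-coding genes with a mean of at least 50 counts, 31.0% were higher and 33.1% lower. A call required an adjusted p of at most 0.05 in edgeR's quasi-likelihood test with Benjamini-Hochberg adjustment over all genes tested and a fold change of at least 1.2. The lincRNAs had a median log2 fold change (ADRr over parent) of 0.21, against -0.0061 over all tested genes and -0.02 over protein-coding genes. Their median absolute log2 fold change was 0.68, against 0.46 over all genes tested, and their median standard error (SE) was 0.17, against 0.096. In 79 of them every ADRr library lay above every parent library and in 56 below, while in 43 the groups overlapped. Over all genes tested, 34.5% lay above and 34.7% below in this way, 69.2% in all. At least a doubling, a log2 fold change of 1 or more, was called in 33 of the 178, and a decrease of that size in 26. Of all genes tested, 9.74% and 9.05% passed these limits. Of the 33 lincRNAs, 20 had a mean of at least 50 counts only in ADRr cells, and of the 26, 10 had it only in parent cells. The samples are bulk cell populations, in which fewer cells that express an RNA and less of that RNA per cell cannot be told apart.

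**Figure D1:**
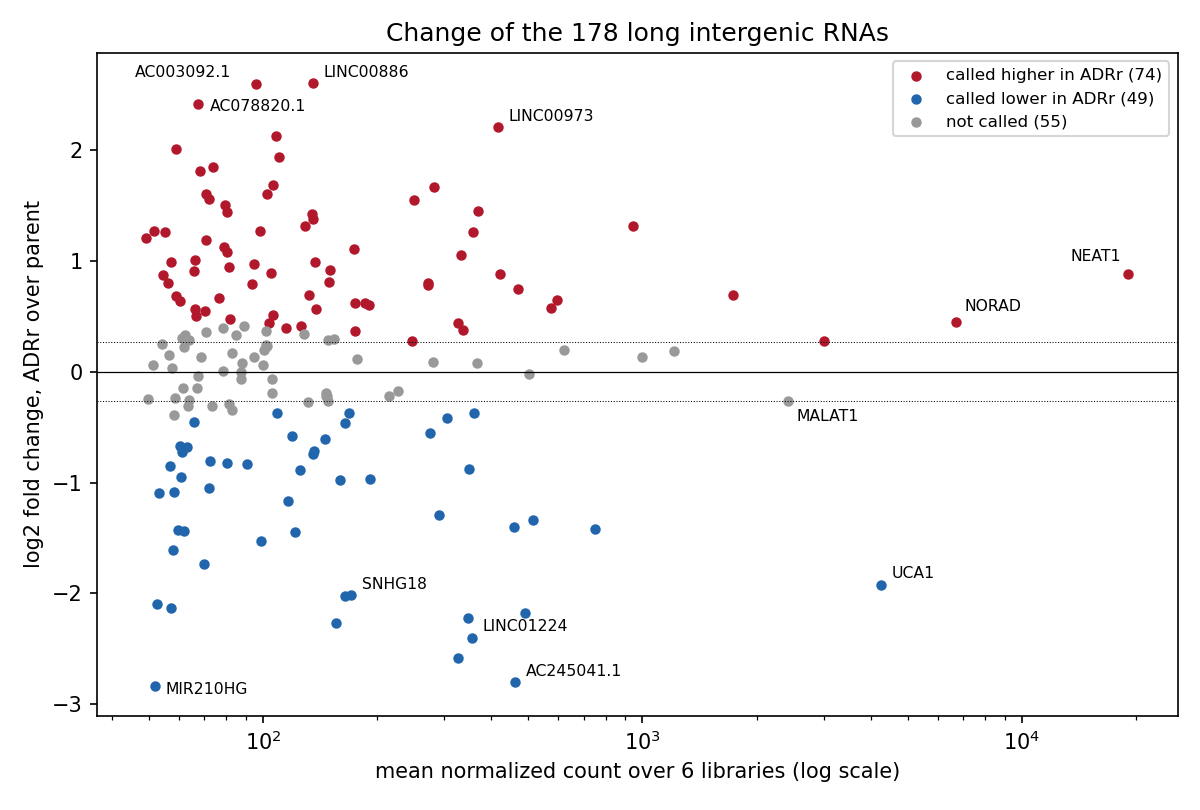
Log2 fold change (ADRr over parent) of the 178 lincRNAs against the mean normalized count over the 6 libraries (log scale). Each point is 1 lincRNA, coloured by its call, and dotted lines mark a fold change of 1.2. Calls in both directions occur from the lowest to the highest counts, NEAT1 lies farthest to the right among those called higher and UCA1 among those called lower.

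The selection used the mean over both groups, so a lincRNA could enter through a single group. With a mean of at least 50 counts required in each group, 135 lincRNAs remained, of which 48 (35.6%) were higher and 35 (25.9%) lower, with a median log2 fold change of 0.13. Their median absolute log2 fold change was 0.48, close to the 0.46 over all genes tested. At least a doubling was called in 13 of these 135, and a decrease of that size in 16. The other members passed 50 counts only in ADRr cells (28, of which 26 were called higher) or only in parent cells (15, of which 14 were called lower), so their direction was largely set by how they entered. Among the lincRNAs described below, LINC00886, AC003092.1, AC078820.1, AC078923.1, AC026250.1, ATP2B1-AS1, LINC02407, PSMG3-AS1, AC006452.1, MANCR, BX470102.2, LINC00996 and AC016831.6 passed 50 counts only in ADRr cells. MIR210HG, LINC02551, MIR137HG, MIR29B2CHG, AC016205.1, LINC00842 and AC055713.1 passed it only in parent cells. BX470102.2 and AC055713.1 lay just inside the limit, each with a mean of 50.2 counts. AC138035.1 (47.8) and AL512625.1 (47.3) lay just outside it. Of the 108 members that carry a gene name, 49 were higher and 28 lower, and of the 70 named only after a sequenced clone, 25 were higher and 21 lower.

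LINC00886 and AC003092.1 had the largest increases, with nearly equal log2 fold changes (2.60 and 2.59). LINC00886 lies at chr3:156747346-156817062 (GRCh38, minus strand) and had 38, 33 and 41 counts in the parent libraries and 243, 216 and 258 in the ADRr libraries. All ADRr libraries were thus far above all parent libraries, and the increase was 6.06-fold (log2 fold change 2.60, SE 0.15, adjusted p = 1.1e-12, edgeR). AC003092.1 on chromosome 7 rose 6.04-fold, from 27, 29 and 23 counts to 196, 154 and 155. Their order was not stable, since on the log2(FPKM + 1) scale LINC00886 had 1.51 and AC003092.1 2.00. LINC00973, a short 2-exon RNA on chromosome 3, rose 4.62-fold from 126, 156 and 150 counts to 757, 621 and 727 (log2 fold change 2.21, SE 0.10, adjusted p = 1.6e-14, edgeR). It was the most abundant of the strongly raised lincRNAs, with 8.80 FPKM in parent and 40.7 FPKM in ADRr cells (FPKM is the authors' read count scaled to exon length and sequencing depth).

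AC078923.1 and AC078820.1 overlap on the minus strand of chromosome 12 and rose together. AC078820.1 went from 17, 24 and 21 counts to 131, 111 and 106 (5.31-fold), and AC078923.1 from 40, 41 and 37 to 203, 170 and 170 (4.36-fold). Where their exons overlap, the counting cannot tell them apart. LINC02407, also on chromosome 12, rose 3.58-fold, from 26, 41 and 27 counts to 142, 80 and 137. ATP2B1-AS1, a 1-exon RNA that starts head to head with the plasma membrane calcium pump gene ATP2B1, rose 3.83-fold from 63, 29 and 41 to 186, 179 and 171 counts. AC026250.1 on chromosome 11 rose 4.01-fold but spread widely among the parent libraries, which held 14, 41 and 13 counts against 107, 77 and 107 in ADRr cells. With a library left out its log2 fold change ranged from 1.69 (without parent replicate 3) to 2.79 (without parent replicate 2), and in the latter fit it lay above that of LINC00886 (2.55). These 8 lincRNAs had the largest increases in the edgeR fit among those whose groups did not overlap. Of the 8, 7 reached the limit of 50 counts only in ADRr cells, where they were high, and LINC00973 reached it in both groups.

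MIR210HG and AC245041.1 had the largest decreases, with log2 fold changes of -2.83 and -2.80. MIR210HG spans chr11:565660-568457 (minus strand) and is the host gene of miR-210, a microRNA known for its induction by hypoxia. Its counts were 79, 76 and 113 in parent and 15, 19 and 5 in ADRr libraries, a 7.11-fold fall (log2 fold change -2.83, SE 0.32, adjusted p = 6.2e-08, edgeR). With a library left out its log2 fold change ranged from -3.25 (without ADRr replicate 2) to -2.42 (without ADRr replicate 3), where AC245041.1 had -2.74, and on the log2(FPKM + 1) scale the values were -1.30 and -2.65, so the order of these RNAs was not stable. MIR210HG and LINC02551 reached 50 counts only in parent cells, where they were high. AL713998.1 on chromosome 6 fell 5.97-fold, from 527, 573 and 530 counts to 101, 83 and 104, and LINC01224 on chromosome 19 fell 5.27-fold, from 545, 570 and 630 to 123, 92 and 134. Every ADRr library of both was far below every parent library. LINC02551 on chromosome 11 fell 4.39-fold from 92, 84 and 97 counts to 12, 26 and 27.

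The other large decreases came in neighbouring pairs. On chromosome 10, AC245041.1 fell 6.96-fold from 785, 853 and 709 counts to 103, 138 and 114, and AC245041.2, which overlaps it on the same strand, fell 4.51-fold from 798, 704 and 843 to 168, 177 and 201. On chromosome 8, LINC01605 fell 4.68-fold from 560, 513 and 602 counts to 130, 126 and 120, and AC091182.2 fell 4.81-fold from 250, 246 and 255 to 61, 54 and 49. The 2 genes on chromosome 8 lie 14617 bases apart on the same strand, and both groups were tight and well separated.

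**Figure D2:**
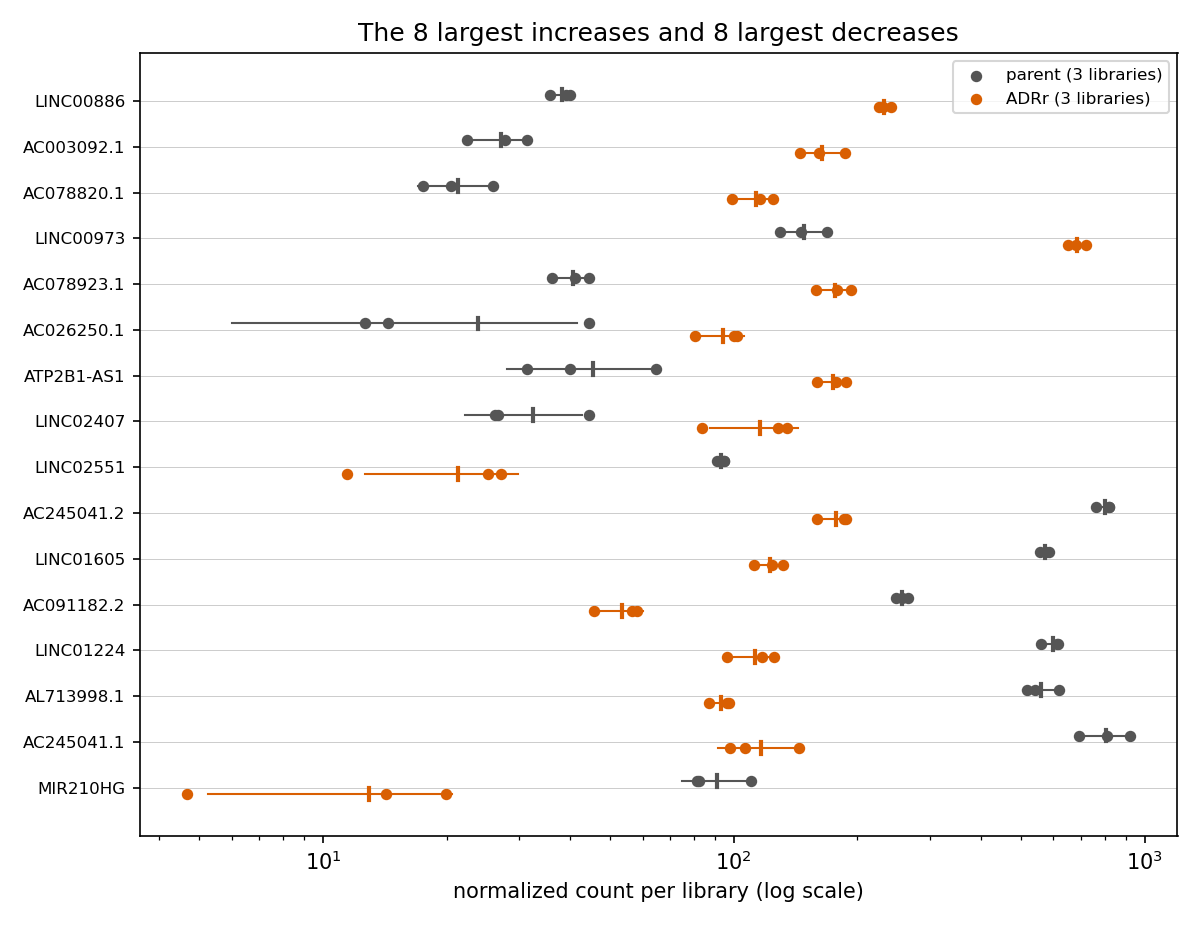
Normalized counts per library (log scale) of the 8 lincRNAs that rose most and the 8 that fell most in ADRr cells. Points are libraries, vertical ticks the group means and horizontal lines 1 SD to each side (n = 3 per group, cut at 1 on the log axis). Of the 8 that rose, 7 had a mean of at least 50 counts only in ADRr cells, as 2 of the 8 that fell, MIR210HG and LINC02551, had only in parent cells. In all 16 the 3 grey parent points and the 3 orange ADRr points do not overlap, and AC026250.1 has the widest spread among parent libraries.

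The levels of the lincRNAs were compared per length. Their median was 2.74 FPKM and their range 0.198 to 71.8, against a median of 6.16 FPKM for tested protein-coding genes. NORAD (71.8), UCA1 (58.6), NEAT1 (48.0) and SNHG8 (36.9) had the highest mean FPKM over all libraries, followed by AL161431.1 (33.9), AC245041.1 (32.0), SFTA1P (24.9), LINC00973 (24.8), SNHG19 (20.9) and AP005233.2 (20.9). Of these 10, NORAD, NEAT1, SNHG8, AL161431.1, SFTA1P and LINC00973 rose, and UCA1, AC245041.1, SNHG19 and AP005233.2 fell. SFTA1P, a transcribed surfactant-associated pseudogene, went from 219, 200 and 199 counts to 518, 489 and 547 (2.39-fold higher). AP005233.2 next to MYEOV went from 174, 165 and 156 to 104, 97 and 111 counts (1.67-fold lower). AL161431.1 went from 2760, 2498 and 2698 to 3261, 3131 and 3745 counts, a 1.21-fold increase at the edge of the limit. Its call was lost without ADRr replicate 3, parent replicate 2 or parent replicate 3, where its log2 fold change was 0.23, 0.26 and 0.25.

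NEAT1, the scaffold RNA of paraspeckles, nuclear bodies that hold RNA-binding proteins and some RNAs, was the lincRNA with the most counts. It rose from 12740, 12246 and 14266 counts in parent libraries to 26058, 24341 and 25579 in ADRr libraries. This is a 1.84-fold increase (log2 fold change 0.88, SE 0.045, adjusted p = 7.3e-14, edgeR), with no overlap between groups. MALAT1, its neighbour on chromosome 11 and an RNA of nuclear speckles, lies 52148 bases away. It had 2410, 2634 and 2665 counts in parent and 2351, 2004 and 2432 in ADRr libraries, with a log2 fold change of -0.26 (SE 0.059, adjusted p = 5.1e-04, edgeR), just short of the fold limit. In 5 of 15 alternative fits MALAT1 passed that limit. The counts are per gene and come from RNA selected for poly(A) tails. Different transcripts of NEAT1 or of MALAT1 were thus not measured separately, and transcripts without a tail may be missed.

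The mRNAs of proteins that build these bodies were read from lists written by hand. Of 10 paraspeckle protein genes tested, 0 were called higher, 5 were lower and 5 were not called, with a median log2 fold change of -0.37 against -0.0061 over all tested genes. Over all genes tested 29.6% were lower, and over protein-coding genes 32.1%. NONO, a core protein that binds NEAT1, fell from 12044 ± 234 to 6102 ± 129 normalized counts (mean ± SD, n = 3, log2 fold change -0.98), and its partners SFPQ (-0.96), PSPC1 (-0.46) and RBM14 (-0.69) fell too. SMARCA4, an ATPase of the SWI/SNF complex, was the fifth (-0.69). Of 10 nuclear speckle protein genes, 8 were lower, 1 was higher (SON, 0.35) and 1 was not called, with a median of -0.40. The 8 included the splicing factors SRSF3 (-0.65) and SRSF7 (-0.41).

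Together the 178 lincRNAs held 0.354% ± 0.006 of all counts in parent and 0.420% ± 0.006 in ADRr cells (SD, n = 3 each, exact permutation test, two-sided p = 0.1, the smallest that 3 against 3 libraries allow). The difference was of the size of the change in NEAT1. It held 0.0775% of all counts in parent and 0.145% in ADRr cells, and without it the other lincRNAs held 0.276% ± 0.007 and 0.275% ± 0.003 (exact permutation test, two-sided p = 0.9). Counted as a share of summed FPKM, which removes the weight of long RNAs, the lincRNAs held 0.383% in parent and 0.374% in ADRr cells (exact permutation test, two-sided p = 0.4). Within the lincRNA counts, the share of NEAT1 went from 21.9% ± 0.710 to 34.6% ± 0.840 and the share of UCA1 fell to 2.49% ± 0.209 from between 10.7 and 11.3%.

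**Figure D3:**
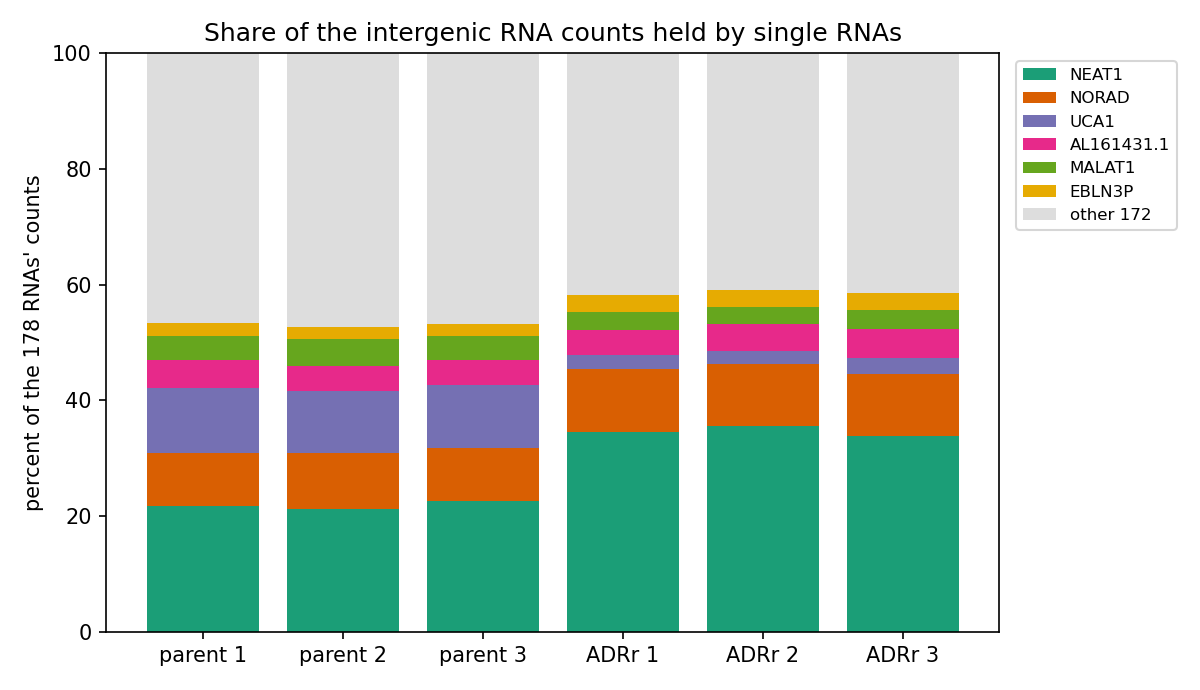
Percent of the counts of the 178 lincRNAs held by the 6 with the most counts, in each of the 6 libraries (stacked bars from 0 to 100%). NEAT1 takes 21.3 to 22.7% in the parent libraries and 33.9 to 35.5% in the ADRr libraries, while UCA1 shrinks from 10.7 to 11.3% to 2.33 to 2.73%.

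NORAD, a cytoplasmic RNA that is induced by DNA damage, rose from 5290, 5562 and 5673 counts to 8315, 7336 and 8135. The increase was 1.37-fold (log2 fold change 0.45, SE 0.050, adjusted p = 4.7e-08, edgeR), with every ADRr library above every parent library.

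The transcript of HCG11, a 1-exon lincRNA on chromosome 6, aligned to that of NORAD with 90.5% identity over 4661 bases. HCG11 had 63, 70 and 67 counts in parent and 99, 99 and 95 in ADRr libraries (1.39-fold higher, log2 fold change 0.48, adjusted p = 0.022, edgeR). NORAD had far more counts, so a small share of misassigned reads could weigh on HCG11, and this was not tested. The call of HCG11 was lost in 7 of 15 alternative fits. Among these were DESeq2 and 3 of the 6 fits that left out a library (without ADRr replicate 2, parent replicate 1 or parent replicate 3). Over all 6 fits that left out a library, the log2 fold change of HCG11 was 0.42 to 0.55.

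Genes reported to take part in breast cancer or drug response were a hand-written list with 8 members among the lincRNAs. Of these, 3 rose, 2 fell and 3 were not called, with a median log2 fold change of 0.09. All genes tested had 29.2% higher and 29.6% lower, and all selected lincRNAs 41.6% and 27.5%. Nothing particular to this list follows from 8 members. UCA1, first described in bladder carcinoma and often studied in drug resistance, lies at chr19:15828206-15836326 (plus strand). It fell from 6618, 6189 and 6874 counts to 1822, 1599 and 2061, 3.79-fold (log2 fold change -1.92, SE 0.056, adjusted p = 3.9e-18, edgeR). The groups lay far apart, with little spread within either. LINC01638 fell 2.46-fold, from 384, 385 and 440 to 181, 158 and 179 counts. MANCR, an RNA of dividing cells that was described in triple-negative breast cancer, rose 2.93-fold from 48, 29 and 30 counts to 126, 81 and 126. PVT1, the neighbour of the oncogene MYC on chromosome 8, rose 1.84-fold from 298, 258 and 312 counts to 557, 539 and 584, and MYC itself rose (log2 fold change 0.95). LINC00472 rose 1.49-fold. The values of CYTOR (log2 fold change 0.13), LINC01234 (0.06) and MALAT1 (-0.26) passed no call.

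All 4 lincRNAs on the p53 and DNA damage list, NEAT1, PVT1, LINC-PINT and NORAD, were called higher, with a median log2 fold change of 0.69, where 29.2% of all genes tested and 41.6% of the 178 lincRNAs were higher. The list was written with earlier results known, and nothing particular to it follows from 4 members. Of these, LINC-PINT had the fewest counts, 45, 46 and 71 in parent against 91, 68 and 82 in ADRr libraries. Before normalization the highest parent library thus lay above the lowest ADRr library, and after it the groups were separate. Its call (log2 fold change 0.50, SE 0.21, adjusted p = 0.040, edgeR) was lost in 8 of 15 alternative fits, among them those without ADRr replicate 1, ADRr replicate 3, parent replicate 1 or parent replicate 2 (0.38 to 0.70 over the 6 fits that left out a library). On the inflammation and interferon list NEAT1 and BISPR were higher and MIR3142HG was lower. BISPR, which starts beside the interferon-induced gene BST2, had 71, 82 and 105 counts in parent and 147, 105 and 115 in ADRr libraries (log2 fold change 0.43). Its call was lost in 6 of 15 alternative fits, among them DESeq2 and those without ADRr replicate 1 or parent replicate 1 (0.31 to 0.56 over the 6 fits that left out a library).

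Host genes of snoRNAs, the small RNAs that guide modification of ribosomal RNA, did not move in a single direction. Of 6 among the lincRNAs, 3 rose, 2 fell and 1 was not called, with a median log2 fold change of 0.42. The background was 29.2% higher and 29.6% lower over all genes tested, and 41.6% and 27.5% over all selected lincRNAs. Nothing particular to snoRNA hosts follows from 6 members. SNHG15 rose 2.48-fold from 491, 513 and 581 counts to 1429, 1320 and 1383 (log2 fold change 1.31, SE 0.071, adjusted p = 2.0e-13, edgeR). EPB41L4A-AS1 rose 2.08-fold from 200, 190 and 242 to 532, 431 and 416, and SNHG8 rose 1.56-fold from 376, 457 and 526 to 801, 665 and 772. In the other direction, SNHG18 fell 4.05-fold from 253, 291 and 255 counts to 51, 68 and 89 (log2 fold change -2.02, SE 0.16, adjusted p = 2.3e-10, edgeR), and SNHG19 fell 1.85-fold from 148, 183 and 140 to 72, 99 and 97. The groups of all 5 were separate. SNHG4 had a log2 fold change of 0.19 and missed the fold limit.

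Host genes of microRNAs moved both ways. The search for enclosed microRNAs left out 8 of the 178 lincRNAs, among them PVT1, so hosts among those are not counted here. Of the lincRNAs searched, 14 enclosed 31 distinct mature microRNAs of RefSeq on their own strand. Of these 14 hosts, 4 rose, 5 fell and 5 were not called, with a median log2 fold change of 0.11. Over all genes tested, 29.2% were higher and 29.6% lower. MIR210HG, MIR137HG, MIR29B2CHG and AC016205.1, which fell, reached 50 counts only in parent cells, and AC016831.6, which rose, only in ADRr cells. The directions of these hosts were thus largely set by how they entered. The hand-written list held only the 7 named as microRNA host genes, of which 1 rose, 4 fell and 2 were not called, with a median of -0.37. MIR210HG, MIR137HG and MIR29B2CHG are among these 4. The mature microRNAs themselves were not measured in these libraries. The sequences below show 1 or 2 microRNAs from each of the 9 hosts that were called, chosen for illustration from those they enclose, with the seed (bases 2 to 8, which pair with target mRNAs) in capitals.
miR-210-3p, in MIR210HG: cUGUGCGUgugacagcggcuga
miR-22-3p, in MIR22HG: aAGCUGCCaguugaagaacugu
miR-146a-5p, in MIR3142HG: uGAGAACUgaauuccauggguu
miR-137-3p, in MIR137HG: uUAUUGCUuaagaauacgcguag
miR-924, in AC016205.1: aGAGUCUUgugaugucuugc
miR-30a-5p, in LINC00472: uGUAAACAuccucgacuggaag
miR-30c-5p, in LINC00472: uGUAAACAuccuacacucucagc
miR-29a-3p, in AC016831.6: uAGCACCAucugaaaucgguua
miR-29b-3p, in AC016831.6, LINC-PINT and MIR29B2CHG: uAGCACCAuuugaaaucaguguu
miR-29c-3p, in MIR29B2CHG: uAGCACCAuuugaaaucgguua
Besides MIR210HG, MIR137HG fell 2.69-fold from 79, 94 and 80 counts to 28, 36 and 35. AC016205.1 fell 2.70-fold from 72, 96 and 95 counts to 29, 39 and 34, and MIR3142HG fell by 0.37 on the log2 scale, from 376, 380 and 436 counts to 389, 258 and 323. Before normalization 1 ADRr library of MIR3142HG lay within the parent range. MIR22HG rose 1.68-fold from 331, 338 and 356 to 682, 537 and 596 counts, and LINC00472, which encloses 2 microRNAs with the seed GUAAACA, from 476, 399 and 476 to 712, 631 and 778.

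The hosts of the miR-29 family, whose members share the seed AGCACCA and are known to target collagen mRNAs, were called in opposite directions, but MIR29B2CHG reached 50 counts only in parent and AC016831.6 only in ADRr cells, which largely set their directions. Both calls were lost on the log2(FPKM + 1) scale without a filter. MIR29B2CHG on chromosome 1, which encloses miR-29b-2 and miR-29c, fell from 76, 56 and 83 counts to 54, 32 and 39 (1.81-fold, log2 fold change -0.85, adjusted p = 0.0027, edgeR). AC016831.6 on chromosome 7, which encloses miR-29a and miR-29b-1, rose from 27, 33 and 53 counts to 67, 75 and 75 (1.83-fold, log2 fold change 0.87, adjusted p = 0.0033, edgeR). LINC-PINT lies within AC016831.6 on the same strand, so reads of their shared exons cannot be assigned to either. Of 17 genes of small RNA processing, 7 fell, 1 rose and 9 were not called (median log2 fold change -0.16). Among all protein-coding genes tested, 32.1% were lower and 30.2% higher, and the difference was not tested. DGCR8, which fell from 932 to 468 normalized counts, and DROSHA (-0.57), which together cut microRNA hairpins from host transcripts, were among the 7, while DICER1 had a log2 fold change of -0.16 and was not called.

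**Figure D4:**
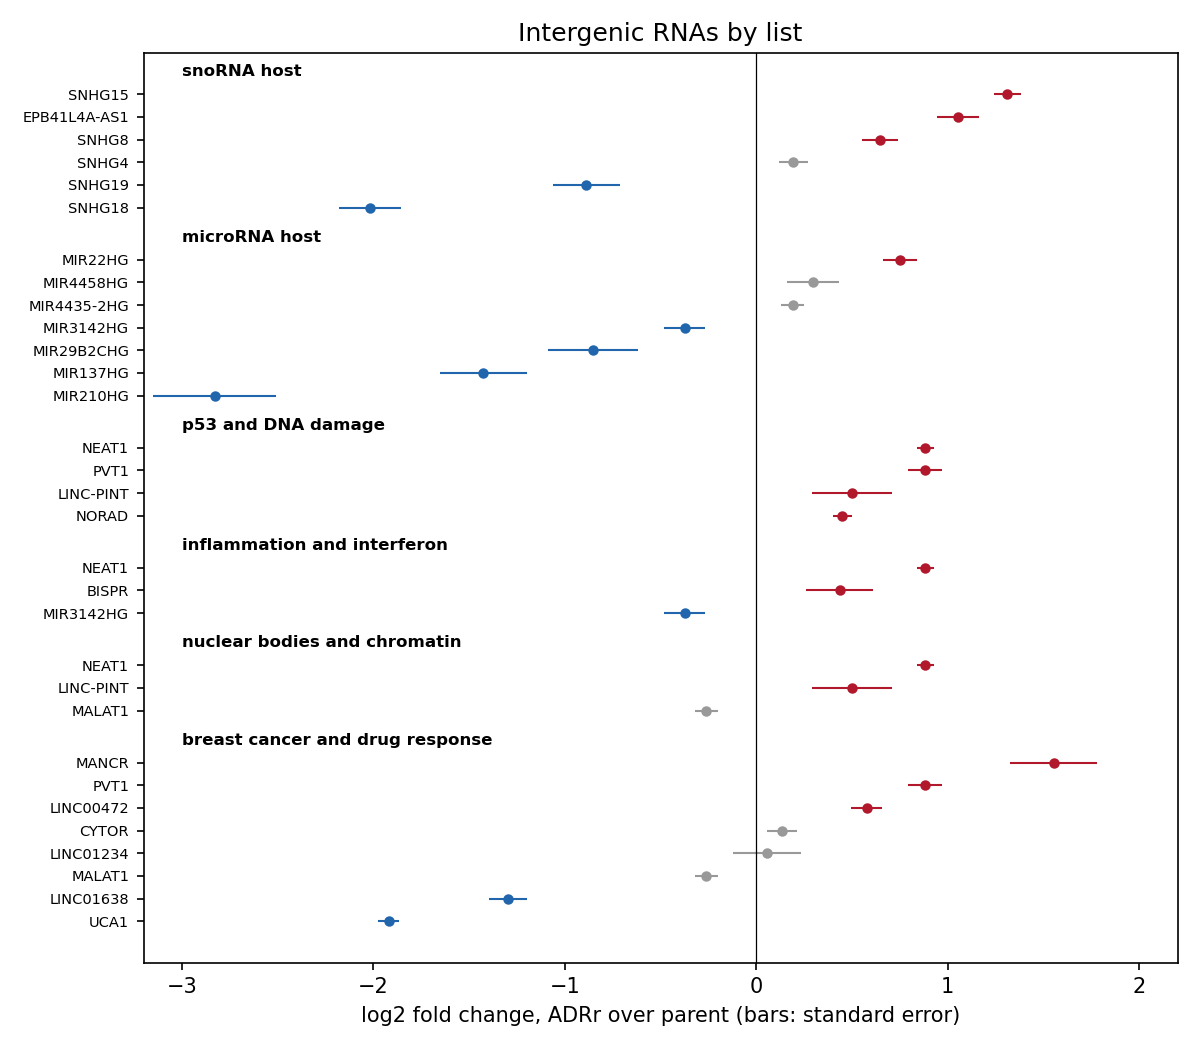
Log2 fold change (ADRr over parent) of the lincRNAs on each hand-written list, with bars of 1 SE from the edgeR fit. Red points were called higher, blue lower and grey were not called. A lincRNA on several lists appears in each. MIR210HG (-2.83), SNHG18 (-2.02) and UCA1 (-1.92) lie farthest to the left, and MANCR (1.55) and SNHG15 (1.31) farthest to the right.

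The nearest tested protein-coding gene was found for each lincRNA. It changed in the same direction as the lincRNA, called or not, in 120 of 178 (67.4%). For protein-coding genes and their own nearest protein-coding gene this was so in 6897 of 12169 (56.7%). Pearson's r of the log2 fold changes was 0.42 over the 178 lincRNAs and 0.19 over the protein-coding genes, given as descriptions across genes, which are not independent and share the same 6 libraries. Of the 123 called lincRNAs, 65 (52.8%) had a neighbour called in the same direction, 20 in the opposite direction and 38 a neighbour that was not called. Of called protein-coding genes, 39.8% had a neighbour called in the same direction. The difference between these shares was not tested.

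Among the largest increases, LINC00886 lies 40576 bases from TIPARP, which encodes a mono-ADP-ribosyltransferase and rose with it (log2 fold change 1.85). AC078923.1 lies 41432 bases from PHLDA1 (1.60), and ATP2B1-AS1 shares its promoter region with ATP2B1 (1.32). For AC003092.1 the neighbour BET1, a gene of vesicle transport, rose by less (0.28), as did DCBLD2 next to LINC00973 (0.45), KRR1 next to AC078820.1 (0.46), SWAP70 next to AC026250.1 (0.40) and BBS10 next to LINC02407 (0.40). Among the largest decreases, LINC01605 and AC091182.2 have ZNF703 as neighbour, which encodes a zinc finger protein and fell (-1.78), and the AC245041 genes have FO681492.1 (-1.97). RASSF7 beside MIR210HG (-0.71) and the zinc finger gene ZNF91 beside LINC01224 (-0.40) fell too. LMBRD1, the nearest tested gene to AL713998.1, lies 1786454 bases away and was not called (-0.02), nor was SNX19 beside LINC02551 (-0.14).

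The calls were also counted by the position of a lincRNA relative to its neighbour, without a test between positions. A total of 41 lincRNAs started head to head with a protein-coding gene (opposite strands, start sites within 1 kb). Of these, 21 (51.2%) were higher and 6 (14.6%) lower, with a median log2 fold change of 0.37. The partner moved in the same direction in 23 of these 41 (56.1%), near the 56.7% of protein-coding genes and their nearest protein-coding gene. SNHG18 and SEMA5A, which encodes a semaphorin, start 125 bases apart and fell together (-2.02 and -1.58), and MIR22HG and WDR81 rose together (0.75 and 0.86). In contrast, PSMG3-AS1 rose (1.68) while PSMG3 fell (-0.32), and NUP50-DT rose (1.66) while NUP50 had -0.01 and was not called. Of 20 lincRNAs that began within 10 kb downstream of a gene on the same strand, 6 were higher and 11 lower, with a median of -0.38, and 15 of 20 moved in the direction of the upstream gene. MIR29B2CHG, downstream of CD34 (-3.19), is 1 of these. BX470102.2, downstream of S100A16 (1.31), rose 2.30-fold. Reads that run past the end of a gene could be counted there, and this was not tested. Of the 78 lincRNAs over 10 kb from any tested protein-coding gene, 33 were higher and 21 lower, with a median of 0.28, and 53 (67.9%) had the direction of the nearest gene.

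**Figure D5:**
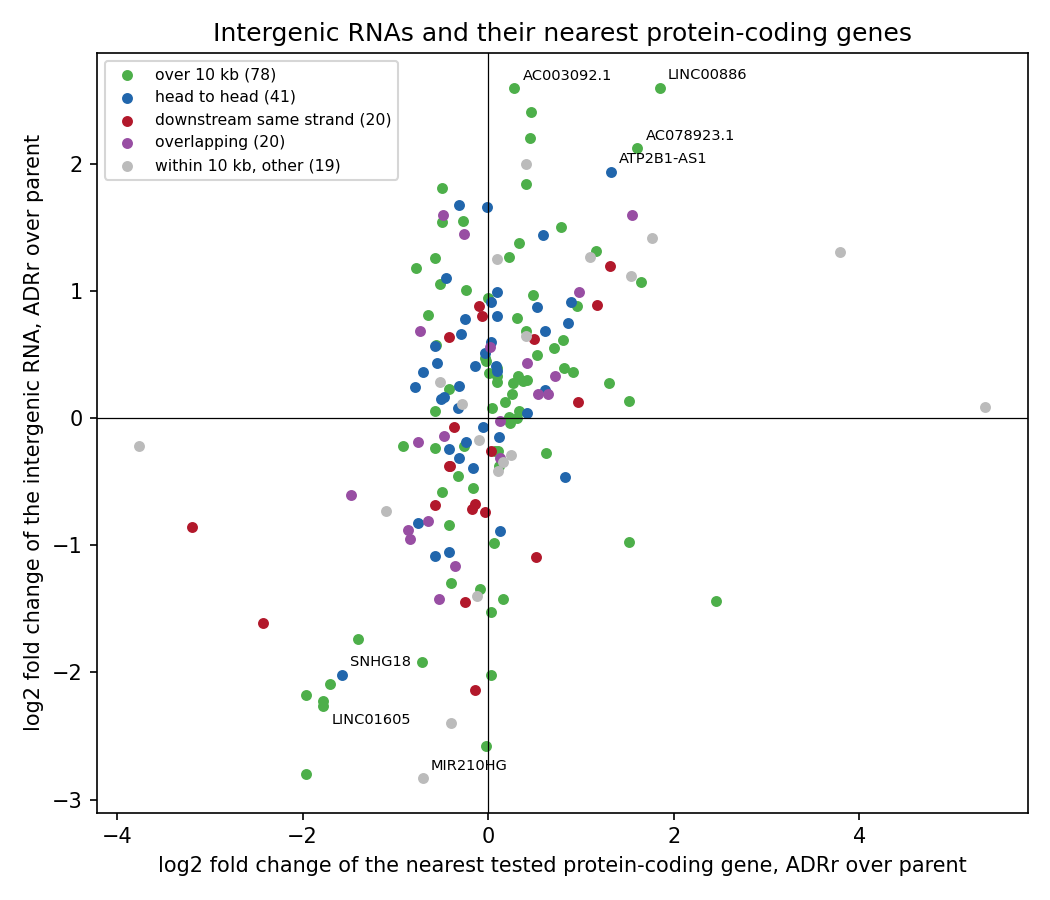
Log2 fold change (ADRr over parent) of each lincRNA against that of its nearest tested protein-coding gene, coloured by their arrangement (number of lincRNAs in brackets). Points in the lower left and upper right quadrants moved in the same direction, 120 of 178. LINC00886, AC078923.1 and ATP2B1-AS1 lie at the upper right and LINC01605 and SNHG18 at the lower left.

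By chromosome, the counts of calls are given without a test and only for some chromosomes, which no rule chose. Of 18 lincRNAs on chromosome 7, 11 were higher and 2 lower, where 28.7% of the tested protein-coding genes on that chromosome were higher and 31.8% lower. They lay along the whole chromosome, from PSMG3-AS1 and SNHG15 on the short arm to AC006452.1 (1.60) and LINC00996 (1.12) on the long arm. Of 7 on chromosome 6, 5 were higher and 1 lower, while 21.2% of its protein-coding genes were higher and 43.6% lower. On chromosome 19, 3 of 13 were higher and 7 lower, while 24.2% of its protein-coding genes were higher and 31.6% lower. The median log2 fold change there was -0.45 against -0.07 for protein-coding genes. On chromosome 2 both kinds of gene were more often higher, with 6 of 13 lincRNAs higher and 1 lower. Of its protein-coding genes 47.2% were higher and 20.5% lower. The number of gene copies per chromosome in the 2 cell populations was not measured here.

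The promoters of LINC00886 and MIR210HG, at either end of the edgeR fold changes, are shown because a factor's site could be sought there. Both RNAs reached the count limit through a single group, and their ranks were not stable. Each runs from 250 bases before to 50 after the start annotated by RefSeq (GRCh38.p14), and capitals mark the core ACGTG that hypoxia-inducible factors recognise, on either strand.
LINC00886, chr3:156817013-156817312, minus strand: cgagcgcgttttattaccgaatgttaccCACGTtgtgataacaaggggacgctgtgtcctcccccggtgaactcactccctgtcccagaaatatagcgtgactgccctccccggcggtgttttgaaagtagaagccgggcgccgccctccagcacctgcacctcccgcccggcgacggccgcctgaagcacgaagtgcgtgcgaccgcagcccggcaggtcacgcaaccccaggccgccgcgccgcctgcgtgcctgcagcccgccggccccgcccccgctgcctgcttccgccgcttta
MIR210HG, chr11:568408-568707, minus strand: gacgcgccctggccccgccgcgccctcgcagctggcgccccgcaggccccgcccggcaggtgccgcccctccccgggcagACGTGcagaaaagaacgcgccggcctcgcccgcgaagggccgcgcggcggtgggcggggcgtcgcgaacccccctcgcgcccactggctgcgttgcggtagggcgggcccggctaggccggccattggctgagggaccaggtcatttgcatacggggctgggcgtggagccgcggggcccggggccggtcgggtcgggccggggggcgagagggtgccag
Both hold ACGTG, although the RNAs moved in opposite directions. A promoter entry in place was found for 75 of the 178 lincRNAs, and 33.3% of these held ACGTG, against 21.4% of all 35116 promoters of this length. Among the 32 called higher the share was 37.5% and among the 23 called lower 39.1%, while 4 of the 20 not called held it, and these shares were not tested against each other. The AP-1 motif TGANTCA was in 10.7% (7.71% of all promoters), the STAT motif TTCNNNGAA in 6 of the 75 promoters (7.66%) and the NF-kB consensus in 5.33% (5.91%), on either strand. A match of letters is not a bound site.

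Genes of nuclear RNA decay, the exosome and its helpers that degrade many unstable noncoding RNAs, moved both ways. Of 21 tested, 6 rose, 5 fell and 10 were not called, with a median log2 fold change of -0.03. The background over all genes tested was 29.2% higher and 29.6% lower, so nothing particular to this list follows from these counts. The catalytic subunit DIS3 rose (0.79), while EXOSC10, the other nuclear nuclease of the exosome, fell (-0.47), as did ZFC3H1 (-0.52), a protein that targets polyadenylated nuclear RNAs to it.

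Some lincRNAs share sequence or position with other genes, which limits what their counts mean. Of the 178, 10 had a stretch of at least 150 bases with at least 99% identity to another gene's transcript, among them AC245041.2 and LINC00842 (99.3% over 302 bases) and CYTOR and MIR4435-2HG (99.2% over 2254 bases). A total of 42 overlapped a protein-coding gene, 13 on the same strand and 29 on the opposite strand. Whether reads were counted by strand is not given in the sources used here. For all 42, among them ATP2B1-AS1, MIR22HG and MIR137HG, reads of the overlapping gene thus cannot be told apart from their own where exons overlap.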

How the data were processed

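RNA of parent MDA-MB-231 cells (3 libraries) and ADRr cells (3 libraries) was sequenced by the authors. Per the methods, the CORALL kit was used on RNA selected for poly(A) tails, with paired-end reads from a NovaSeq. The sample labels describe another kit. The submitters' processing notes list fastp, HISAT2 2.0.5, featureCounts 1.5.0-p3 and DESeq2 1.20.0 with GRCh38, without their order. The authors deposited whole-number read counts per gene, not normalized, and FPKM values per gene. All 58735 genes match GENCODE 29 in position and strand.

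The members and gene lists were chosen with earlier results of these data known. The count table was fitted with edgeR 4.0.16 in R 4.3.3 (TMM, filterByExpr, 15242 genes), using its quasi-likelihood test with Benjamini-Hochberg adjustment over these genes. TMM factors were 0.987 to 1.01. Library totals were 15983985 to 18272314 counts, and the median SE of a lincRNA's log2 fold change was 0.17. Normalized counts are scaled by TMM to the mean library size. Single values were compared by exact permutation tests. Simulated data in which 200 genes changed were used to test the fits.

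Genes named were the 10 members with the highest FPKM, the 8 with the largest increase and 8 with the largest decrease among called members with separate groups, in each list the largest increase, the largest decrease and members that changed by at least 1 on the log2 scale, the 2 genes on each side of the count limit, and the nearest tested protein-coding genes. Other names were chosen after their values were seen. Some results are not reported here. Sequences came from RefSeq (microRNAs, promoters) and GENCODE 29 transcripts, aligned among themselves with BLAST.

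Alternatives were DESeq2 size factors or library size alone in edgeR, DESeq2 1.42.0, no low-count filter, a minimum of 10 counts in each library, limma-trend (limma 3.58.1) on log2(FPKM + 1) and log2(FPKM + 0.1) with a mean FPKM of at least 0.5 and without that filter, other fold limits, glmTreat, a replicate block, each library left out, other count limits for members, other neighbour distances and, chosen after seeing the data, leaving out members with near-identical copies.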

Additional observations from a re-analysis of the deposited data

How the results depend on the processing

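Most values kept their direction. Of the 123 called lincRNAs, 106 kept their call in all 6 fits that left out a library while of the 115 tested in all 15 alternative fits of the test 94 kept it in each. The other 8 were left out by a filter in at least 1 fit, and 4 of them kept their call wherever they were tested. No called lincRNA was called in the opposite direction. DESeq2 kept 111 of the 123 calls and glmTreat 106. A limit of 1.2 on the log2 scale left 26 lincRNAs higher and 22 lower. A mean of at least 20 counts gave 125 higher and 81 lower (of 332), at least 100 counts 43 and 29 (of 97), and at least 50 in each group 48 higher with a median log2 fold change of 0.13. The median of 0.21 became 0.23 with library size alone, 0.15 with log2(FPKM + 1), 0.13 with log2(FPKM + 1) and no filter, 0.24 without the 10 lincRNAs with near-identical copies and 0.18 to 0.26 with a library left out. On the FPKM scale the pseudocount shrinks the changes of low genes. The difference in the share of counts (ADRr minus parent, 0.0665 percentage points) reversed to -0.0015 without NEAT1 and to -0.0083 in summed FPKM. AC055713.1, which was not called, ranged from -0.46 to 0.065 when a library was left out, with the reversed sign without parent replicate 3. Same-numbered libraries did not deviate together (correlations 0.0074, -0.021 and -0.046), so the numbers do not pair them. With a replicate block 74 lincRNAs were higher and 47 lower, the median was 0.21 and 66.9% had the direction of their neighbour. The share of lincRNAs with the direction of their neighbour lay between 62.9 and 69.7% over the 13 alternatives run for it, which did not include DESeq2, limma-trend or other low-count filters. Depth limited the precision, since the median SE was 0.21 among lincRNAs with a mean of 50 to 100 counts and 0.071 among those with at least 500.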

Other observations

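Within 200 kb of each other lay 19 pairs of the 178 lincRNAs, of which 13 moved in the same direction and 8 were both called so. Among the 8, AC245041.1 and AC245041.2, AC078923.1 and AC078820.1, AC010343.3 and AC034223.2, and AC016831.6 and LINC-PINT overlap on the same strand. Reads of their shared exons cannot be told apart, so these pairs are not independent. The pairs were not compared with pairs of other genes. In 3 pairs the calls were opposite. FLJ22447 on chromosome 14 fell from 1022, 1078 and 1083 counts to 469, 367 and 417 (log2 fold change -1.42, SE 0.080, adjusted p = 4.6e-13, edgeR), while HIF1A-AS2, 56862 bases away and antisense to HIF1A, rose (0.56). The call of HIF1A-AS2 was lost in DESeq2 and without ADRr replicate 3, parent replicate 1 or parent replicate 3. Its log2 fold change was 0.49 to 0.68 over the 6 fits that left out a library. HIF1A itself had a log2 fold change of 0.02 and was not called. If counting ignored the strand, reads of HIF1A could be counted in HIF1A-AS2, and this was not tested. LINC00662 rose (1.54) while AC006504.5, which overlaps it on the other strand, fell (-0.58). The reads of LINC00662 and AC006504.5 cannot be told apart where their exons overlap, if counting ignored the strand. In the remaining pair AC102953.2 fell (-0.38) while PSMG3-AS1 rose (1.68).

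Several host genes of small RNAs that GENCODE 29 does not class as lincRNA changed as well. GAS5 rose from 1553 to 4594 normalized counts (log2 fold change 1.56) and ZFAS1 from 433 to 1581 (1.87), while DANCR fell from 752 to 291 (-1.37) and MIR100HG, the host of let-7a-2, miR-100 and miR-125b-1, from 496 to 157 (-1.65). AFAP1-AS1, an antisense RNA, fell from 1059 to 28.5 normalized counts (-5.21). Over all tested antisense genes 25.1% were higher and 16.3% lower, with a median log2 fold change of 0.18. These genes were chosen after their values were seen.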
